A study of Boechera gunnisoniana with 7 samples.

Results

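The synergid cells of *Boechera gunnisoniana* were compared with the egg cell and the central cell, the other cell types of the mature female gametophyte sampled. A gene was called synergid-high where its log2 expression value on the synergid array was at least 2 (4-fold) above its values on both the egg cell and the central cell array, and synergid-low where it was at least 2 below both. Of 21428 genes, 92 met this rule, of which 79 were synergid-high and 13 synergid-low. The levels on these 3 arrays chose the genes, so that the size of these differences is a description and carries no test. *B. gunnisoniana* is a triploid relative of *Arabidopsis* and an obligate apomict, which forms clonal seed and is pseudogamous, so that its endosperm still needs fertilisation. All samples came from greenhouse plants of this species that received no treatment. Cells or tissue were cut out of sections by laser-assisted microdissection (LAM), and many sections were pooled per sample. The AIC (apomictic initial cell, the cell that takes the place of the megaspore mother cell) and the surrounding sporophytic nucellus (sporo_nucellus) were taken from buds and gave 2 arrays each. Egg cell, central cell and synergid cells were taken from flowers that had been emasculated before fixation and gave 1 array each, so that their values have no replicate among the arrays. Further samples of these cells that the study sequenced were not analysed here. According to the methods of the study, each gametophyte sample is enriched for its cell type but also holds some neighbouring gametophytic cells. RNA was amplified in 2 rounds and hybridized to the ATH1 GeneChip, the probes of which were designed on *Arabidopsis* sequence, so that a low value can reflect a poor match of the probes as well as a low transcript level, and these cannot be told apart. Fewer cells of a type and less RNA per cell also cannot be told apart in such pools.

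Synergids are a pair of cells beside the egg cell at the micropylar end of the embryo sac. In *Arabidopsis* they secrete peptides that attract the pollen tube, and they receive the tube, which bursts in one of them and releases the sperm cells. The transcription factor MYB98 is required for their guidance function, while the receptor-like kinase FERONIA (FER) and the MLO family protein NORTIA (NTA) act in pollen tube reception. These roles are known from *Arabidopsis*, and the genes on the array are named by their *Arabidopsis* identifiers.

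The synergid array had a standard deviation (SD) of 1.24 over all genes, against 1.4 on the egg cell array and 1.11 on the central cell array. A presence cutoff, the deposited value that corresponds to a detection p value of 0.02 on an array, lay at 5.29 on the synergid array, at 4.94 on the egg cell array and at 5.59 on the central cell array. Over the genes of the table, which do not stand for replicates, the synergid array had a Pearson's r of 0.844 with the egg cell array and of 0.830 with the central cell array. The hybridization controls (bioB, bioC, bioD and cre) stood apart on the synergid array: all 18 such features had their highest value of the 7 arrays there, between 0.14 and 2.19 above the higher of the egg and central cell arrays. The part of this difference in the gene values was not tested.

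The synergid label was first checked against marker genes. *MYB98* (AT4G18770) had a value of 6.61 on the synergid array, against 3.18 on the egg cell and 3.91 on the central cell array. The AIC arrays had values of 3.49 and 3.90, and both nucellus arrays 3.68. The synergid array was the only one on which *MYB98* exceeded the presence cutoff, and the distance to the nearer gametophyte array was 2.70. *NTA* (AT2G17430) had a value of 6.08 on the synergid array, 2.89 on the egg cell and 3.08 on the central cell array. Its values were 3.10 and 2.72 on the AIC arrays and 3.04 and 3.24 on the nucellus arrays, so that it too was above the cutoff on the synergid array alone, with a distance of 3.004. *FER* did not follow this pattern, with a value of 4.01 on the synergid array, below the cutoff, and values of 5.02 and 3.90 on the egg and central cell arrays. The co-receptor gene *LRE* and the attractant peptide genes *LURE1.1* and *LURE1.2* were not analysed here. Of the 6 listed synergid markers, 3 were therefore measured and 2 were synergid-high, whereas 0.369% of all genes were. *MYB98* and *NTA* were listed with earlier results of these data known.

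Markers of the neighbouring gametophyte cells were read on the same array. Of 5 measured egg cell markers of 9 listed, all 5 had their highest value of the gametophyte arrays in the synergid cells, as had 6633 of 21428 genes, and none was synergid-high. The distance was as small as 0.03 for *EC1.2* and 0.10 for *WOX2*. The distance was largest for *RKD2*, an RWP-RK transcription factor gene of the *Arabidopsis* egg cell, with 5.06 on the synergid array against 3.63 on the egg cell and 3.49 on the central cell array, a distance of 1.43 at values below the presence cutoffs. *WOX2*, a homeobox gene of the zygote lineage, reached 5.47, 4.92 and 5.37 on the same arrays, and was the only egg cell marker above the synergid cutoff. The remaining markers were low throughout. The sperm-activating peptide genes *EC1.2* and *EC1.5* lay between 2.74 and 3.23 on all 7 arrays, and *WOX8* had values of 3.21, 2.73 and 3.05 on the synergid, egg and central cell arrays. On the egg cell array itself none of the 5 reached the cutoff of 4.94, so that these markers do not check the egg cell label. *EC1.1*, *EC1.3*, *EC1.4* and *RKD1* were not analysed here.

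Of 7 central cell markers, none was highest on the synergid array, against 6633 of the 21428 genes. *AGL80*, a MADS-box gene of the central cell, had values of 6.14, 6.10 and 6.60 on the synergid, egg and central cell arrays and was above the cutoff on all of them. *FWA*, an imprinted homeobox gene, had 3.47, 3.69 and 4.85, and *MEA*, an imprinted Polycomb gene, had 4.20, 4.52 and 4.83. Both *FWA* and *MEA* were below the presence cutoff on all 7 arrays, so that these differences cannot be told apart from background. The other Polycomb genes were also below the cutoffs on the gametophyte arrays: *FIS2* had 3.79, 4.16 and 3.81, and *FIE* had 4.67, 4.83 and 4.09. *AGL61*, which acts together with *AGL80*, had 4.08, 4.28 and 4.53, and the DNA glycosylase gene *DME* had 4.05, 4.34 and 4.20. On the central cell array 1 of the 7 markers, *AGL80*, was above the cutoff of 5.59. *AGL80* was nearly as high on the synergid and egg cell arrays, and the other markers were below the cutoff. None of the 7 markers therefore checks the central cell label. The median of the central cell markers was 4.08 on the synergid array, 4.34 on the egg cell array and 4.53 on the central cell array. The corresponding medians of the egg cell markers were 3.23, 3.02 and 3.05. What neighbouring cells contributed to the synergid-high genes was not tested.

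**Figure D1:**
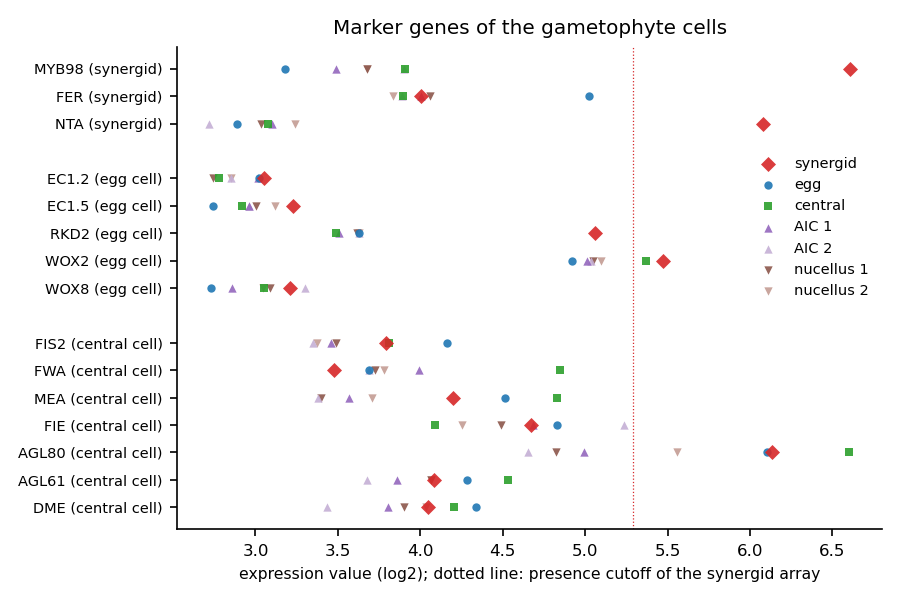
Log2 expression values (horizontal axis) of the measured synergid, egg cell and central cell markers on the 7 arrays, 1 symbol per array, with the presence cutoff of the synergid array (5.29) as a dotted line. *MYB98* (6.61) and *NTA* (6.08) stand to the right of the line on the synergid array alone, while *AGL80* is high on all 3 gametophyte arrays.

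The 79 synergid-high genes had a median value of 7.60 on the synergid array, 4.84 on the egg cell array and 4.51 on the central cell array. Over all genes these medians were 4.10, 4.01 and 4.16. The synergid values ranged from 5.52 to 12.22, so that all 79 exceeded the presence cutoff of that array, as did 19.4% of all genes. The rule asks for a synergid value at least 2 above both other arrays, so this high level follows largely from the rule. On the egg cell array 36 of the 79 were above the cutoff (27.2% of all genes), and on the central cell array 16 were (13.9% of all genes), while 42 were above it on neither. For 23 of the 79 the synergid array was the only one of the 7 with a value above the cutoff, a pattern that 160 genes had in all. This pattern, too, is favoured by the rule. At the other end, 11 of the 79 were above the cutoff on all 7 arrays. The distance to the nearer of the egg and central cell arrays had a median of 2.48. It was at least 3 for 20 genes and at least 4 for 6. The nearer array was more often the egg cell, which had the higher value of the pair for 43 genes, against 34 for the central cell, with equal values for the other 2. Over all genes the egg cell had the higher value for 8101 and the central cell for 12821. These counts include small differences at background. At a difference of at least 2, the egg cell was higher for 847 genes and the central cell for 39. For the 42 synergid-high genes above the cutoff on neither array, the nearer array is likewise set by background values.

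**Figure D2:**
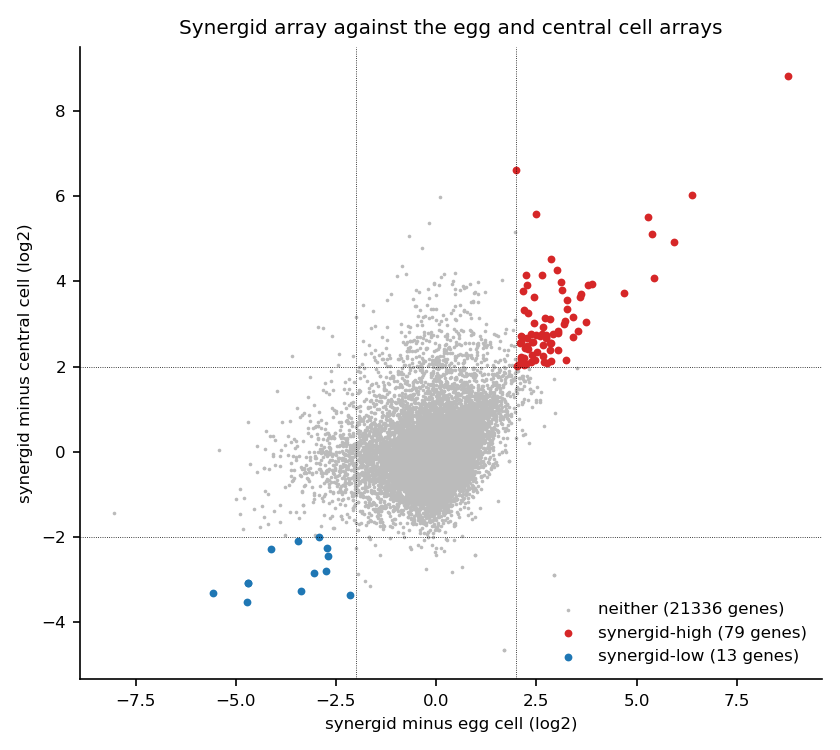
Synergid minus egg cell value (horizontal axis, log2) against synergid minus central cell value (vertical axis, log2) for 21428 genes, with the 79 synergid-high genes in red, the 13 synergid-low genes in blue and dotted lines at differences of 2 and -2. One gene lies apart at 8.78 and 8.83, while most synergid-high genes lie close to the lines.

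The files pair the identifiers with no gene names and no annotation table was used here, so that most of the genes are given by identifier. The gene with the largest distance was AT5G12380. Its value was 12.22 on the synergid array, the second highest of all genes there. On the other arrays it lay between 3.06 and 3.43, which is below the presence cutoff on each of them, so that the distance of 8.78 to the nearer gametophyte array was taken against a value not above background. This was also the largest difference of any gene between the synergid array and each of the 6 other arrays.

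AT4G02655 had 9.76 on the synergid array, 4.38 and 4.64 on the egg and central cell arrays, 3.33 and 3.50 on the AIC arrays and 3.14 and 3.44 on the nucellus arrays. AT5G52975 had 10.33 on the synergid array and 6.25 on the central cell array, where it exceeded the cutoff, and between 4.46 and 4.90 on the 5 others. Its closest array was therefore the central cell. AT5G40645 had 8.14 on the synergid array, 2.86 and 2.62 on the egg and central cell arrays, 2.84 and 2.82 on the AIC arrays, 3.39 on the first nucellus array and 4.77 on the second. These 3 genes kept distances of 5.12, 4.08 and 3.37 to the nearest of all 6 other arrays, the largest after AT5G12380 together with 4 more genes. These were AT1G52970 (7.54 on the synergid array, 3.40 to 3.77 on the others), AT1G13740 (8.23 and 3.55 to 4.55), AT5G45910 (7.05 and 2.74 to 3.45) and AT1G21070 (7.60 and 3.35 to 4.02). Each of the 4 was above the cutoff on the synergid array alone.

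The other genes of the 15 with the largest distance to egg and central cell differed in how the AIC and nucellus arrays related to them. AT1G11730 had 9.29 on the synergid array, 5.51 and 5.38 on the egg and central cell arrays and 5.20 to 5.94 on the AIC and nucellus arrays. It was above the cutoff on 6 arrays. AT5G37540 was lower, with 6.27 on the synergid array, and it lay between 2.90 and 3.03 on all others. AT1G13000 had 9.80 on the synergid array and 3.88 and 4.87 on the egg and central cell arrays. Its AIC values were 3.81 and 4.60, and its nucellus values of 6.97 and 4.07 differed by 2.90 between replicates. AT4G39180 had 7.17 on the synergid array, 3.90 and 3.61 on the egg and central cell arrays, 3.87 and 4.25 on the AIC arrays, and 5.08 and 5.89 on the nucellus arrays. AT3G14790 had 7.32 on the synergid array, 4.18 and 3.52 on the egg and central cell arrays, 5.29 and 4.25 on the AIC arrays and 4.74 and 5.28 on the nucellus arrays. The last 2 of the 15, AT3G07820 and AT3G57450, were also high on 1 nucellus array and are described with the genes of that pattern.

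**Figure D3:**
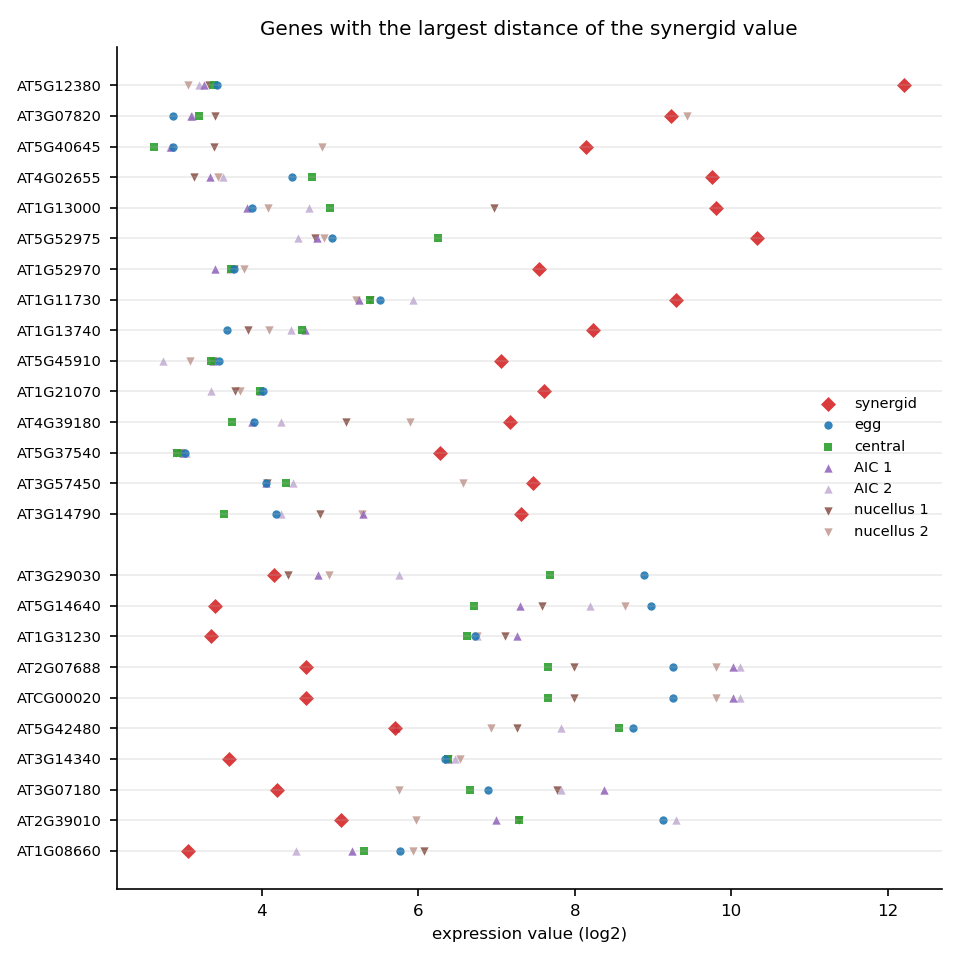
Log2 expression values (horizontal axis) on the 7 arrays, 1 symbol per array, of the 15 synergid-high genes (upper block) and the 10 synergid-low genes (lower block) with the largest distance to the nearer of the egg and central cell arrays. AT5G12380 (12.22) is farthest from its other arrays, AT3G07820 has a second high value on the nucellus 2 array (9.44), and the synergid value is the lowest in every row of the lower block.

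The AIC and nucellus arrays were not used by the rule, although the synergid value enters both comparisons. Of the 79 genes, 33 were at least 2 above all 4 AIC and nucellus arrays, a distance that 59 genes (0.275%) had in all. Another 33 were above all 4 arrays by less than 2, and 13 were at or below at least 1 of them. Above all 4 arrays by any amount were 31.2% of all genes. In the first class the median value was 7.71 on the synergid array and between 3.85 and 4.17 on the other 6, close to the medians over all genes. In the second class the synergid median was 7.47, and the medians of the 4 AIC and nucellus arrays, between 4.98 and 5.44, were partly above those of the egg and central cell, 5.06 and 4.79. The number of synergid-high genes with a synergid value at least 2 higher was 53 against the first AIC array, 51 against the second, and 54 and 55 against the nucellus arrays in the same order. Over all genes the corresponding shares were 0.649%, 0.602%, 0.7% and 0.966%.

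**Figure D4:**
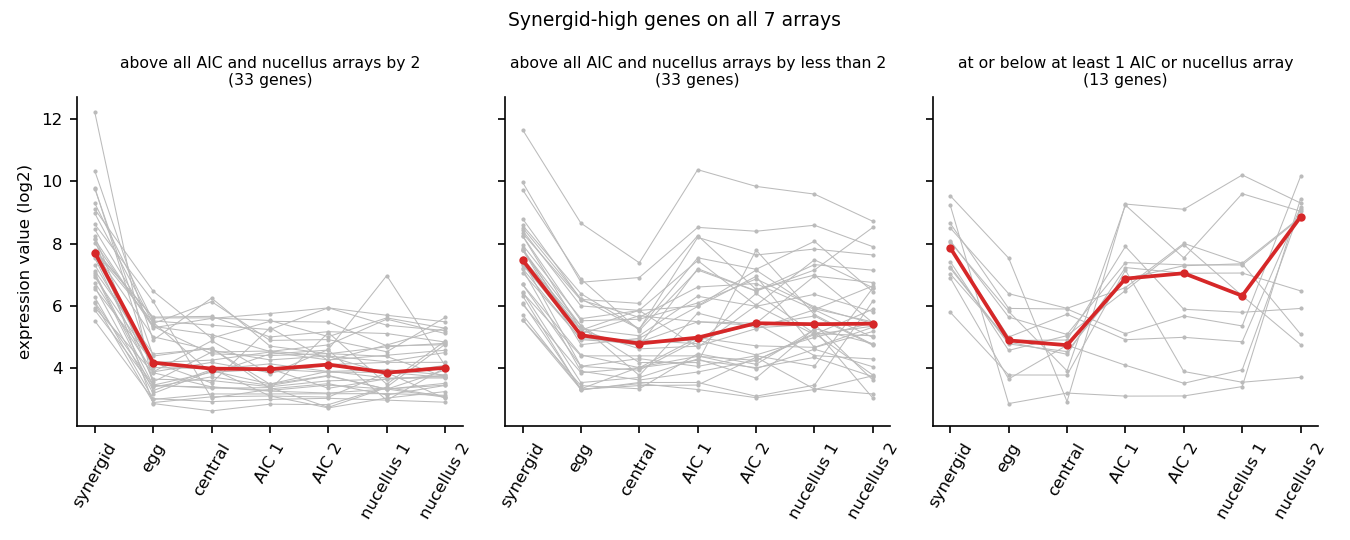
Log2 expression values (vertical axis) of the 79 synergid-high genes on the 7 arrays, 1 grey line per gene and the median in red, in 3 panels by how the synergid value compares with the 4 AIC and nucellus arrays. The red line is flat outside the synergid array in the first panel (3.85 to 4.17), and in the last panel it rises to 8.86 on the nucellus 2 array.

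In the class of 13 genes at least 1 AIC or nucellus array was as high as the synergid array. AT2G01090 had 9.54 on the synergid array, 7.53 on the egg cell and 2.92 on the central cell array, and between 9.10 and 10.20 on the AIC and nucellus arrays. AT4G10040 had 8.05, 5.82 and 3.91 on the synergid, egg and central cell arrays and 7.54 to 9.60 on the AIC and nucellus arrays, and AT3G17900 had 7.20, 4.84 and 4.44 against 6.48 to 7.23. For these genes it was the egg and central cell arrays that were low, rather than the synergid array that was high among the 7. AT4G10040 and AT3G17900 were named after their values were seen.

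The synergid value was exceeded on the second nucellus array for 7 of the 79 genes, on the first for 3, on the first AIC array for 4 and on the second for 2. A group of 6 genes was at least 2 higher on both the synergid and the second nucellus array than on the 5 others. Since these include the egg and central cell arrays, such genes are synergid-high by construction. AT3G07820 was the most marked of them, with 9.23 on the synergid and 9.44 on the second nucellus array, and between 2.86 and 3.40 on the first nucellus array, the AIC arrays and the egg and central cell arrays. AT3G57450 had 7.46 and 6.57 on these 2 arrays and 4.05 to 4.39 on the others. The remaining 4, named after their values were seen, were AT2G47050 (6.90 and 9.12), AT3G61160 (8.65 and 10.16), AT4G02380 (7.86 and 9.16) and AT1G44160 (6.33 and 6.15). In each of the 6 the nucellus replicates differed by 2.51 or more. With other arrays such sharing was rarer among the synergid-high genes: 1 gene each with the second AIC array (AT4G30870, named after its values were seen, 7.80 and 7.79) and the first nucellus array (AT1G13000), and none with the first AIC, the egg cell or the central cell array, the last 2 of which the rule does not allow. Pollen markers were read beside this group. Of 6 listed, 3 were measured, namely *ANX1* and *ANX2*, receptor-like kinase genes of the pollen tube, and *HAP2*, a sperm fusogen gene. They had values of 3.07, 3.28 and 3.48 on the synergid array and 3.83, 3.31 and 2.88 on the second nucellus array, all below the presence cutoff. The other listed pollen markers, *VGD1*, *PPME1* and *DUO1*, were not analysed here. Whether pollen transcripts entered this group was not tested.

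The 13 synergid-low genes (0.0607% of all genes), a number that rose to 26 under quantile normalization of the arrays, had a median of 4.16 on the synergid array, 8.74 on the egg cell and 6.75 on the central cell array. All 13 were above the presence cutoff on the egg cell array and 12 on the central cell array, where AT1G08660 was the exception, while AT5G42480 and AT5G55280 were the only 2 above it on the synergid array. Their synergid values, from 3.05 to 5.99, spread from the lower to the upper ranks of that array. The synergid value was below all 4 AIC and nucellus arrays for all 13, as for 21.6% of all genes, and at least 2 below all 4 for 5 of them, against 0.294% of all genes. On single arrays, 9 and 10 of the 13 were at least 2 lower in the synergid cells than in the AIC samples (2.46% and 1.4% of all genes), and 8 and 6 than in the nucellus samples (2.45% and 2.96%). The low synergid value that the rule asks for enters each of these comparisons. The excess over all genes is therefore favoured by the rule, as are the counts above the cutoff on the egg and central cell arrays.

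AT5G14640 had 3.40 on the synergid array, 8.97 and 6.72 on the egg and central cell arrays, 7.30 and 8.19 on the AIC arrays and 7.59 and 8.64 on the nucellus arrays. AT1G31230 had 3.34 on the synergid array and lay between 6.62 and 7.26 on all other arrays. AT3G14340 had 3.58 against 6.34 to 6.53, so that its 6 other arrays lay close together at a distance of 2.76 or more. AT2G07688 and ATCG00020 had identical values on all 7 arrays. They are counted as 2 genes here, and the 13 genes hold 12 distinct profiles. Their value was 4.57 on the synergid array, 9.26 and 7.66 on the egg and central cell arrays, 10.02 and 10.11 on the AIC arrays and 7.99 and 9.80 on the nucellus arrays. These 5 identifiers, 4 if the identical pair is counted once, formed the group that was at least 2 lower in the synergid cells than on every other array, and for 4 of them the distance to the nearest was at least 3.

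The largest distance to the egg and central cell was that of AT3G29030, with 4.16 on the synergid array against 8.88 and 7.69. Its AIC values were 4.71 and 5.76 and its nucellus values 4.34 and 4.85, so that it was above the presence cutoff on the egg cell, central cell and second AIC arrays. AT5G42480 had 5.70 on the synergid array, 8.74 and 8.56 on the egg and central cell arrays, 5.71 and 7.83 on the AIC arrays and 7.26 and 6.92 on the nucellus arrays. AT2G39010 had 5.01 on the synergid array, 9.12 and 7.29 on the egg and central cell arrays, 6.99 and 9.29 on the AIC arrays and 7.29 and 5.98 on the nucellus arrays. In both of these genes the AIC replicates differed by more than 2, namely by 2.11 and 2.30. AT3G07180 had 4.20 on the synergid array against 5.76 to 8.38, and AT1G08660 had 3.05 against 4.43 to 6.07.

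The genes next to the threshold were near it on both sides. Just inside on the high side were AT2G01090 (a distance of 2.00), AT1G60440 (2.01) and AT5G50420 (2.03), and just outside were AT4G27650 (1.98), AT5G19140 (1.98) and AT5G60450 (1.97). On the low side AT5G55280 (2.01), AT1G55840 (2.10) and AT5G40760 (2.14) were inside, and AT2G20770 (2.00, which is 1.99935 before rounding), AT2G02850 (1.95) and AT4G19670 (1.95) outside. AT5G19140 had 8.96 on the synergid array and 6.98 and 5.87 on the egg and central cell arrays, and its AIC and nucellus values, from 8.27 to 9.18, lay on both sides of the synergid value.

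The spread between replicates could be read from the AIC and nucellus pairs alone. The AIC arrays differed by at least 2 for 332 genes (1.55%), with an SD of the difference of 0.608, and the nucellus arrays for 710 genes (3.31%), with an SD of 0.772. The synergid and egg cell arrays differed by at least 2 for 619 genes, with an SD of 0.752, and the synergid and central cell arrays for 468 genes, with an SD of 0.698. Differences of this size between the synergid array and its neighbours were thus more frequent than differences between the AIC replicates and less frequent than those between the nucellus replicates. At a size of 4 the numbers were 42 and 27 genes for the synergid comparisons, against 32 for the AIC and 102 for the nucellus replicates. A difference of 2 between single arrays therefore does not stand clear of the spread between replicates. The largest replicate differences were 7.16 for the AIC and 8.20 for the nucellus, and the distance of 8.78 of AT5G12380 was larger than both.

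The replicate differences of the members themselves were smaller than their distances for most, but had larger medians than over all genes. For 49 of the 79 synergid-high genes both the AIC and the nucellus replicates differed by less than 1. This is a smaller share than that over all genes, 17862 of 21428. The AIC replicates differed by 2 or more for 3 of the 79 (AT4G30870, AT1G60440 and AT4G19880, the last named after its values were seen) and the nucellus replicates for 9. Over all genes the corresponding shares were 1.55% and 3.31%. Of all 21428 genes, 12878 were above the presence cutoff on none of the 7 arrays, where values spread less. Among genes above the cutoff on at least 1 array of the replicate pair, the shares were 4.99% for the AIC and 10.7% for the nucellus. The replicate difference was as large as the gene's own distance to egg and central cell for 2 genes in the AIC, AT4G30870 and AT1G60440, and for 5 in the nucellus. The latter were AT4G33700, with a nucellus difference of 2.20 against a distance of 2.12, and the group of AT3G07820, AT3G61160, AT2G47050 and AT4G02380 that was shared with the second nucellus array. AT4G33700 was named after its values were seen. The median replicate difference of the 79 was 0.34 for the AIC and 0.54 for the nucellus, against 0.22 and 0.21 over all genes. The latter medians include the many genes at background and are no measure for genes at the level of the 79.

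**Figure D5:**
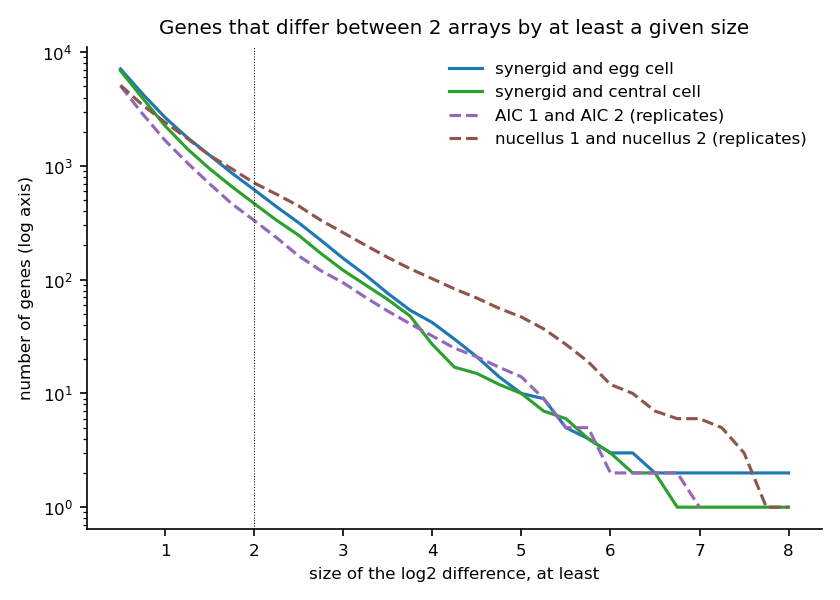
Number of genes (vertical axis, log scale) that differed between 2 arrays by at least the log2 difference on the horizontal axis, drawn up to a difference of 8, for the synergid array against the egg and central cell arrays (solid lines) and for the AIC and nucellus replicates (dashed lines), with the difference of 2 as a dotted line. At 2 the nucellus replicates (710 genes) lie above the synergid comparisons (619 and 468) and the AIC replicates (332) below them.

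Ranks within each array do not depend on its scale. The median rank of the synergid-high genes was at the 97.7th percentile of the synergid array, the 70.7th of the egg cell array and the 61.0th of the central cell array, and between the percentiles of 68.2 and 71.8 on the AIC and nucellus arrays. Of the 79, 38 were also at least 25 percentile points above both the egg and the central cell array, as were 387 of all genes. A gene within the top 25 percentile points of either array cannot meet this difference, whatever its synergid value. Failing it therefore does not show that a distance depends on the scale. *MYB98* and *NTA* were among the 38. AT5G52975 was not, since it stood at the 99.9th percentile of the synergid array and at the 93.7th of the central cell array and differed mainly in level. For the synergid-low genes the median percentile was 52.4 on the synergid array, 98.7 on the egg cell and 96.9 on the central cell array. Of the 13, 10 were at least 25 percentile points below both, as were 257 of all genes.

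Gene lists with a known function in the gametophyte or in secretion were then read as a whole. Synergids are secretory cells, and of 20 listed genes for protein folding and secretion in the endoplasmic reticulum (ER) 18 were measured. None was synergid-high or synergid-low. The synergid value was above both other cells for 12 of the 18 and below both for 3 (*BIP3*, *CRT1* and *ERDJ3A*), whereas 6633 and 5875 of all 21428 genes were. The median difference of the list was 0.29 to the egg cell and 0.80 to the central cell, against 0.07 and -0.03 over all genes. Its median level was at or above that of the synergid array, 6.15, on 3 of the 4 AIC and nucellus arrays, with 6.67 and 6.08 on the AIC arrays and 7.01 and 6.16 on the nucellus arrays. *SHD*, the ER-resident HSP90 chaperone, had the largest distance, with 8.39 on the synergid array, 7.17 on the egg cell and 4.63 on the central cell array. It was as high in the AIC and nucellus samples, with 8.53 and 8.60 on the AIC arrays and 8.48 and 8.15 on the nucellus arrays. The protein disulfide isomerase gene *PDIL1-1* had 6.12 against 4.82 and 5.16, the lectin chaperone gene *CNX1* had 7.27 against 6.46 and 5.96, and the co-chaperone gene *ERDJ3B* had 8.64 against 8.09 and 5.85. Of the 3 below both, *CRT1* had 3.81 against 4.53 and 4.99, *ERDJ3A* 3.58 against 4.20 and 3.80, and *BIP3* 2.56 against 2.73 and 2.74. All 3 were below the presence cutoff on every array, so that these differences are not told apart from background. Among the 12 above both, *CRT3* and *PDIL2-3* were likewise below the cutoffs of the synergid, egg and central cell arrays. Above the presence cutoff were 11 of the 18 on the synergid array, 11 on the egg cell array and 6 on the central cell array. The shares of all genes were 19.4%, 27.2% and 13.9%. The largest distance in the list, 1.22 for *SHD*, was below the difference of at least 2 that 710 genes had between the nucellus replicates.

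Apart from the synergid markers, none of the other lists held a synergid-high or synergid-low gene. Of 9 genes for pollen tube reception and gametophyte function, 7 were measured. The synergid value was above both other cells for 2 of them and below both for 4, whereas 6633 and 5875 of all 21428 genes were. The median difference of the list was -0.15 to the egg cell and -0.20 to the central cell. *HERK1*, a receptor-like kinase gene related to *FER*, had 4.23 on the synergid array against 3.75 and 3.77, and *ANJ*, its close relative, had 3.83 against 3.59 and 3.48. Both were below the presence cutoff on these arrays. *EVN*, a dolichol kinase gene required for tube reception, had 4.80 against 5.87 and 5.28. *CKI1*, *ATO* and *MAA3* were also below both other cells, but below the presence cutoff on every array. The list of heat shock chaperones (10 of 12 measured), with medians of -0.29 and -0.02, and those of auxin genes (12 measured), with medians of -0.13 and -0.27, and cytokinin genes (12 measured), with medians of 0.06 and -0.12 against the egg and the central cell, lay near the medians over all genes. The largest distance to both cells among them was that of *AXR3*, an auxin-response repressor gene, with 4.19 on the synergid array, 6.78 on the egg cell and 5.34 on the central cell array.

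Among 19 genes of small RNA pathways and DNA methylation, 4 were above the presence cutoff on the synergid array (*AGO1*, *AGO4*, *DCL4* and *RDR6*), 9 on the egg cell array and 4 on the central cell array, where the shares of all genes were 19.4%, 27.2% and 13.9%. *AGO6*, an ARGONAUTE gene of RNA-directed DNA methylation, had 3.59, 7.20 and 4.15 on the synergid, egg and central cell arrays, and the chromatin remodeller gene *DDM1* had 2.82, 6.18 and 3.38. Of these 3 arrays, both genes were above the presence cutoff on the egg cell array alone. The closeness of their synergid and central cell values is therefore not told apart from background. *HEN1*, the methyltransferase gene that stabilises small RNAs, went the other way with 4.63, 3.51 and 3.16, but remained below the cutoff. Of 36 measured cell cycle genes of 40 listed, 1 was above the cutoff on the synergid array (the transcription factor gene *E2FC*, with 5.76), 10 on the egg cell array and 2 on the central cell array, against the same shares of all genes (19.4%, 27.2% and 13.9%). The list holds genes that the study named for differing in detection between the AIC and the *Arabidopsis* megaspore mother cell. These counts therefore do not stand for cell cycle genes in general. *PCNA2*, which encodes the sliding clamp of DNA replication, had 3.42 on the synergid array, 8.43 on the egg cell and 4.53 on the central cell array, and *E2FA*, an activator of S-phase genes, had 4.12, 6.49 and 4.93. Both were below the presence cutoff on the synergid and central cell arrays. *PCNA2* was at 7.77 and 8.75 on the AIC arrays, and at 7.36 and 2.98 on the nucellus arrays, the replicates of which differed by over 4.

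The same rule gave other numbers for the neighbouring cells. On the egg cell array 340 genes (1.59%) were at least 2 above both others and 5 (0.0233%) at least 2 below, and on the central cell array 18 (0.084%) were above and 238 (1.11%) below. The synergid counts of 79 and 13 thus lay between those of the egg and the central cell in both directions. The order follows that of the SD of the arrays, 1.4, 1.24 and 1.11, on the high side, and the part of the scale in these counts cannot be told apart from the cell type with 1 array each. Against single cells, 131 genes were at least 2 higher in the synergid than in the egg cell sample and 488 lower, and 418 were higher than in the central cell sample and 50 lower. These comparisons share the synergid array. Of the 131 genes above the egg cell, 79 were also above the central cell by 2, whereas 13 of the 488 below the egg cell were also below the central cell by 2.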

How the data were processed

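Transcript levels were measured on 7 ATH1 GeneChips, of which the synergid, egg and central cell arrays (1 each) entered the rule and the AIC and nucellus arrays (2 each) served for comparison. The values deposited by the authors are on the log2 scale, with 1 value for each *Arabidopsis* gene on each array, after the probes had been regrouped by gene. The methods refer to an earlier study for the processing of the arrays, with a newer probe annotation, and name RMA for the log2 values of heatmaps; whether the deposited table holds those RMA values is not stated there. Of 21492 rows, 64 Affymetrix controls were left out, which left 21428 genes, and 0 columns of per-sample values were unused. No normalization or pseudocount was added. Arrays carry no depth of sequencing, and their number limits the precision.

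Genes were counted as described in the text, with a log2 difference of 2. The presence cutoff of each array was the log2 value that separates detection p values of 0.02 or lower from larger ones in the first 1999 rows of the authors' table of presence calls. It was used as a level only. No test was run and no p value was computed, because each gametophyte cell has 1 array and the rule uses its values. Genes and lists were chosen with earlier results of these data known. The text names the 15 synergid-high and 10 synergid-low genes with the largest distance to the nearer of the egg and central cell arrays, the 8 and 4 with the largest distance to all 6 other arrays, each listed gene that met the rule, 3 genes on each side of each threshold, and all synergid, egg cell and central cell markers; genes beyond these are said to have been named after their values were seen, or belong to the lists. The 12 lists hold 162 genes, of which 142 were measured. Alternatives were differences of 1 and 3, quantile normalization, centring on the median, ranks within arrays, a filter on the presence cutoff, other detection p values, the egg or the central cell alone, and leaving out 1 of the AIC or nucellus arrays at a time. The counting was checked on simulated data. Python 3.11.15, numpy 2.4.6, pandas 2.3.3 and matplotlib 3.10.9 were used.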

Additional observations from a re-analysis of the deposited data

Results flagged for a closer look

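Both results concern control features that the comparisons left out. The probe set AFFX-BioB-5_at, for a bacterial transcript added to each hybridization, had a value of 11.2 on the synergid array, 8.67 on the egg cell array and 9.19 on the central cell array, and between 6.44 and 8.14 on the AIC and nucellus arrays. A second probe set for the same transcript, AFFX-r2-Ec-bioB-5_at, had 11.4 on the synergid array, 8.52 and 9.24 on the egg and central cell arrays, and 6.78 to 8.11 on the others. They drew attention because they meet the rule for synergid-high genes, by 2.01 and 2.19, although the same amount of such controls is intended on each array. The other bioB, bioC, bioD and cre hybridization controls were also higher on the synergid array than on the egg and central cell arrays, by 0.14 or more. Whether this carries over to gene values was not tested.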

How the results depend on the processing

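Of 60 counts under alternative settings, 38 were within 1.5 times the value reported and 22 were not. With a difference of 1 there were 426 synergid-high genes (329 above the presence cutoff, 169 above all AIC and nucellus arrays) and 207 synergid-low genes (75 below all AIC and nucellus arrays). With a difference of 3 there were 20 (20 above the cutoff, 11 above all AIC and nucellus arrays) and 5. Quantile normalization gave 105 synergid-high and 26 synergid-low genes. Ranks within the array, at 25 percentile points, gave 387 (171 above all AIC and nucellus arrays) and 257 (106 below all). Against the egg cell alone there were 131 (125 above the cutoff) and 488 (28 below all AIC and nucellus arrays), and against the central cell alone 418 (413 above the cutoff) and 50 (8 below all). Leaving out 1 AIC or nucellus array gave 34 to 42 synergid-high genes above the remaining arrays, the most without the second nucellus array, and 5 to 6 synergid-low genes below them. The 79 synergid-high genes were all kept under quantile normalization, 76 with each array centred on its median and 38 by ranks, and 34 under these and a common SD, a setting chosen after seeing the data. Genes within the top 25 percentile points of the egg or central cell array cannot be kept by ranks, which lowers both the 38 and the 34. Of the 13 synergid-low genes 10 were kept under all of these settings. Counting genes with equal values once, also chosen after seeing the data, left 79 and 12. No paired analysis was possible because no result comes from a test and the synergid, egg and central cell arrays carry no replicate number. With 1 array per gametophyte cell, and the study's sequenced samples not analysed here, no difference between these cells has a replicate check here, and values near or below the presence cutoffs of 4.94 to 5.59 are not told apart from background.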

Other observations

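Markers of the ovule sporophyte were measured for 10 of 10 listed genes, and none was synergid-high or synergid-low. *SHP2*, a MADS-box gene of the ovule, was the only one above the presence cutoff on the synergid array, with 5.31, against 6.28 on the egg cell and 5.03 on the central cell array. *STK*, which specifies ovule identity, had 3.63 on the synergid array, 5.86 on the egg cell and 3.85 on the central cell array, and *SHP1* had 5.03, 6.81 and 4.70. *INO*, a gene of the outer integument, had 4.74, 4.77 and 5.08 on these arrays and 7.14 and 4.41 on the nucellus arrays.

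A set of 7 genes was at least 2 higher on both the synergid and the egg cell array than on the 5 other arrays, and none was so high on the synergid and the central cell array. By their identifiers, the synergid-high genes fell on all 5 *Arabidopsis* chromosomes, with 17, 7, 18, 17 and 20 genes on chromosomes 1 to 5 out of 5525, 3493, 4259, 3168 and 4903 measured.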
